A study of Mus musculus with 88 samples.

Results

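The condensin subunits and the type II topoisomerases were described in single fully grown germinal vesicle (GV) oocytes of mice, the stage before the nuclear envelope of the oocyte breaks down. The set held 10 genes out of 38540 features in the count table. They were the core ATPases Smc2 and Smc4, the condensin I subunits Ncaph, Ncapd2 and Ncapg, the condensin II subunits Ncaph2, Ncapd3 and Ncapg2, and the topoisomerases Top2a and Top2b. Each gene was taken by the name given to its feature in the study's supplementary list of transcripts (Smc4 and Ncapg), or otherwise as the same-strand GENCODE M21 gene whose span overlapped the feature best. The overlap of the spans ranged from 83.6% to 100% of their union, and the feature of Smc2 carries the name 2700081L22Rik in that list. The oocytes came from ovaries of virgin C57BL/6Babr females that ovulated naturally, aged 12 weeks (young) or 44 to 54 weeks (aged, labelled old). Polyadenylated RNA of each oocyte was copied with the Smart-seq2 protocol while its DNA was set aside for methylation analysis. The study assigned each oocyte a chromatin configuration from its own transcripts, non-surrounded nucleolus (NSN) or surrounded nucleolus (SN), so that SN and NSN oocytes differ in expression by construction, and whether any of the 10 genes helped to make that assignment is not given in the sources used here. The groups held 30 young NSN, 12 young SN, 37 aged NSN and 8 aged SN oocytes. The oocytes of each age came from a few females, and the labels name no female for an oocyte. Each age group was therefore treated as 1 sample and no test was run. Spreads and tallies over oocytes are not spreads over females.

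Condensins are ring-shaped complexes that bring loops of DNA together and shape chromosomes for division. SMC2 and SMC4 form the ring's ATPase core in both complexes, a kleisin subunit (NCAPH or NCAPH2) closes it, and HEAT-repeat subunits (NCAPD2 and NCAPG, or NCAPD3 and NCAPG2) bind DNA. Condensin II is nuclear throughout interphase, whereas condensin I gains full access to chromosomes once the nuclear envelope breaks down. Type II topoisomerases pass one DNA duplex through another and so remove the tangles between sister chromatids. TOP2A is the form typical of dividing cells and TOP2B that of non-dividing cells. In GV oocytes chromatin condenses around the nucleolus in the passage from NSN to SN, and the stored transcripts serve the meiotic divisions that follow.

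Coordinates are those of the features in GRCm38, and each feature spans the exons and introns of its gene. The core genes lie at chr4:52438946-52488260 (Smc2, plus strand) and chr3:69004644-69034628 (Smc4, plus strand). The condensin I genes lie at chr2:127103747-127133996 (Ncaph, minus strand), chr6:125168009-125191857 (Ncapd2, minus strand) and chr5:45669411-45706049 (Ncapg, plus strand). The condensin II genes lie at chr15:89354142-89372826 (Ncaph2, plus strand), chr9:27030169-27095311 (Ncapd3, plus strand) and chr12:116405379-116463531 (Ncapg2, plus strand). The topoisomerase genes lie at chr11:98992942-99024256 (Top2a, minus strand) and chr14:16365121-16430832 (Top2b, plus strand). Ncapg shares 8869 bases with the feature of Lcorl on the other strand, and Ncaph2 shares 1518 bases with Lmf2 and 1188 bases with Sco2. Whether the counting kept the strands apart is not given in the sources used here, so reads from these stretches cannot be told apart, and the values of Ncapg and Ncaph2 are uncertain to that extent.

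The promoters of 4 members are shown, and these members were chosen by the comparisons that follow. Smc2 is the member that differed most between configurations, and Ncapg followed Smc4 most closely. Top2a and Top2b are the abundant and the scarce topoisomerase. The windows run from 250 bases before to 50 bases after the annotated start and were taken from RefSeq (GRCm38.p6), which gave windows for 9 of the 10 genes, without Smc4. Capitals mark 3 elements on either strand, none overlapping another in these windows: the CCAAT box (CCAAT or ATTGG), the cell cycle genes homology region or CHR (TTTGAA or TTCAAA) and the GC box (GGGCGG or CCGCCC).
Smc2, chr4:52438971-52439270, plus strand: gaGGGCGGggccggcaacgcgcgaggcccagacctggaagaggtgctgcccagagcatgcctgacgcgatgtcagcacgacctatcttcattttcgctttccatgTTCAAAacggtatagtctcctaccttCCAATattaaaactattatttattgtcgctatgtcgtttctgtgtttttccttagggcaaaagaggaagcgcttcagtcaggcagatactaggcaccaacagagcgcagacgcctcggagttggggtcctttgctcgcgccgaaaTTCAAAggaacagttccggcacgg
Ncapg, chr5:45669675-45669974, plus strand: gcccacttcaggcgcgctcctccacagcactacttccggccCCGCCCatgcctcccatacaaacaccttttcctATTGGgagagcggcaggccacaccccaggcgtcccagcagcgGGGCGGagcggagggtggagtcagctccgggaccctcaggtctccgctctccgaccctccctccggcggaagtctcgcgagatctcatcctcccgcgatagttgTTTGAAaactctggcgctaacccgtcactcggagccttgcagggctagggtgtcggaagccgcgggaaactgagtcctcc
Top2a, chr11:99024140-99024439, minus strand: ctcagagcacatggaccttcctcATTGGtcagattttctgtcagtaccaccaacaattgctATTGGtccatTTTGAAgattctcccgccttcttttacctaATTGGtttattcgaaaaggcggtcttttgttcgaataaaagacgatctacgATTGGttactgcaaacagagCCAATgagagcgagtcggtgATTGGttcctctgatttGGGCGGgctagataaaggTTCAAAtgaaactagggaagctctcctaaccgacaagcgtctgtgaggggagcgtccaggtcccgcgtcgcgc
Top2b, chr14:16364956-16365255, plus strand: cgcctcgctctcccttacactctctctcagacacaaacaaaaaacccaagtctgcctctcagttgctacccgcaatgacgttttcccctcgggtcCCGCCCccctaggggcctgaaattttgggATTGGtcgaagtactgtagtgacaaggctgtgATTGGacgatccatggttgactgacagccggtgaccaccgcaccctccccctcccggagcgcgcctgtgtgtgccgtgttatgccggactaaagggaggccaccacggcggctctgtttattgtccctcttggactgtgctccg
The Top2a window holds 6 CCAAT boxes and 2 CHR matches, and the Top2b window 2 CCAAT boxes and no CHR match. In all, 6 of the 9 genes have the CHR letters in a window (Ncapd3 only in the second of its 2 windows), against 17.9% of the 32851 promoter windows of the reference. The CCAAT letters occur for 5 of the 9 genes and in 37.4% of all windows, and the GC box for 8 of the 9 genes and in 35.7% of all windows. A match describes letters and not a bound site. Whether the letters bear on the levels or comparisons given here was not tested.

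Totals ranged from 1579196 to 8231046 counts per young oocyte (median 3002989) and from 976456 to 5448310 per aged oocyte (median 2379884), and levels are given as CPM (counts scaled to a common library total). Pooled CPM is the sum of a gene's counts over the oocytes of a group divided by their summed totals, with 95% intervals that cover counting error only, since copies made in the PCR carry no molecular identifiers. The 6 oocyte markers with a feature, among them the zona pellucida genes, summed to 15330 pooled CPM in young NSN, 18777 in young SN, 13920 in aged NSN and 19844 in aged SN oocytes, so that their sum was higher in SN oocytes at both ages. The 7 granulosa markers with a feature summed to 11.7 pooled CPM in young NSN, 7.67 in young SN, 8.76 in aged NSN and 6.98 in aged SN oocytes. Their sum in single oocytes ranged from 0 to 76.5 CPM. Inha was the highest of the 7 in each group, with pooled CPM of 7.04 (young NSN), 4.91 (young SN), 5.25 (aged NSN) and 4.97 (aged SN). Foxl2, which defines granulosa cells, was scarce throughout, with pooled CPM of 0.05 (young NSN), 0.03 (young SN), 0 (aged NSN) and 0.10 (aged SN). Its 0 therefore does not show that granulosa RNA was absent. Of the 3 theca, stroma and luteal markers with a feature, Col1a1 was at 0 in every group and the sum did not exceed 2.62 pooled CPM. Correlations of the 10 members with the granulosa sum over the 87 oocytes ranged from -0.08 to 0.29, and with log2 total counts from -0.02 to 0.29.

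Transcripts of all 10 genes were present in GV oocytes, at levels that differed widely per length of the gene. Per kilobase of exon union, the order in young and in aged oocytes was Smc4, Ncapg, Ncapg2, Ncaph, Ncaph2, Ncapd3, Top2a, Smc2, Ncapd2 and Top2b. Smc4 stood at 169 CPM per kb in young and 179 in aged oocytes, and Ncapg, a HEAT subunit of condensin I, at 84.6 and 87. Ncapd2, the other HEAT subunit of the same complex, stood at 1.83 and 1.68 CPM per kb, and Top2b at 1.38 and 1.45. Measured levels per kilobase thus differed between subunits that occur together in 1 complex. Whether the stored amounts differed likewise was not tested, since only polyadenylated RNA was copied and the lengths were those of annotated exons. Unscaled for length, pooled CPM in young and aged oocytes was 882 and 932 for Smc4, 598 and 615 for Ncapg, 11.5 (95% interval 10.9 to 12.0) and 10.5 (9.91 to 11.1) for Ncapd2, and 20.2 (19.4 to 20.9) and 21.2 (20.3 to 22.1) for Top2b. Every gene had counts in each of the 87 oocytes except Ncapd2, which had none in 1 aged NSN oocyte (oocyte 16, the shallowest library, where 3 counts would be 3.07 CPM).

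Smc4 exceeded Ncapg in 42 of 42 young and 45 of 45 aged oocytes, and Ncapg exceeded Ncapg2 in all of them. The middle of the order was close: Ncapd3 exceeded Top2a per kb in only 26 of 42 young and 24 of 45 aged oocytes, and these neighbours did not differ beyond their spread. Ncaph2 exceeded Ncapd3 in 34 of 42 and 36 of 45. At the bottom, Ncapd2 exceeded Top2b in 32 of 42 and 28 of 45 oocytes. With the longest annotated transcript as the length, Top2a moved above Ncaph2 and Ncapd3 in both ages, at 24.2 CPM per kb in young and 21.2 in aged oocytes, and the other genes kept their order.

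**Figure D1:**
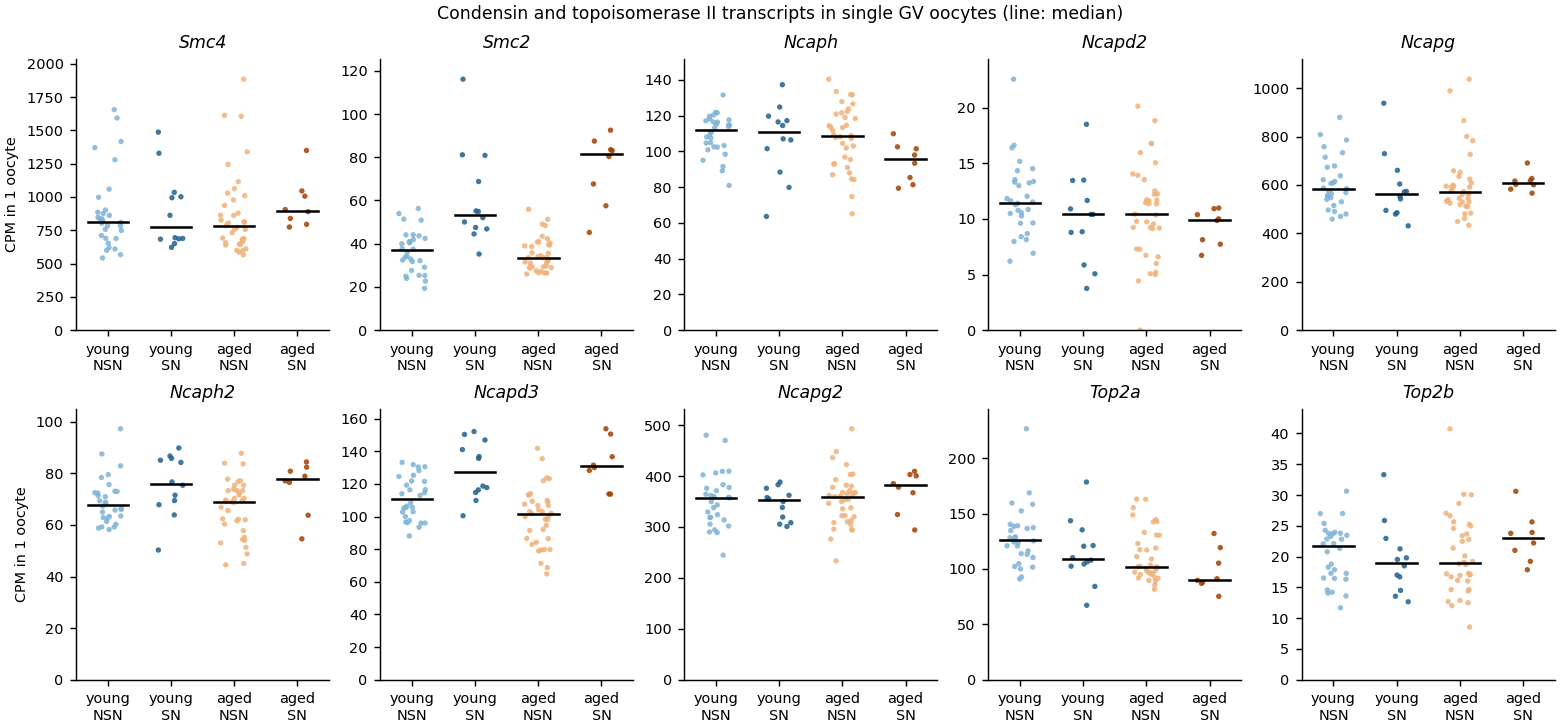
CPM of each gene in single oocytes (points) of the 4 groups, with the median of each group as a line; each panel has its own linear y axis from 0. Smc2 is higher in SN than in NSN oocytes at both ages, and Smc4 has a tail of high oocytes in all groups.

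Smc2 and Smc4 encode the partners of one heterodimer, and they differed in how they varied. Smc2 ranged from 19.4 to 56.3 CPM in young NSN oocytes (median 36.9) and from 35.2 to 116 in young SN oocytes (median 53.5). In aged oocytes Smc2 ranged from 26 to 55.9 CPM in NSN (median 33.6) and from 45.2 to 92.5 in SN (median 81.7). The SN oocytes were thus high at both ages: 11 of the 12 young SN oocytes lay above the young NSN median and 4 above the highest young NSN oocyte, and of the 8 aged SN oocytes all lay above the aged NSN median and 7 above the highest aged NSN oocyte. The pooled log2 ratio of SN to NSN was 0.62 in young (95% counting interval 0.54 to 0.70) and 1.10 in aged oocytes (1.01 to 1.19). Over 18 alternatives in young and 14 in aged oocytes, which changed the scaling or depth, took part of the oocyte names or left out single SN oocytes, the ratio lay between 0.52 and 0.75 and between 1.00 and 1.26.

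Smc4 did not show this split. It ranged from 542 to 1655 CPM in young NSN oocytes (median 814), from 622 to 1487 in young SN (median 778), from 566 to 1884 in aged NSN (median 785) and from 774 to 1349 in aged SN (median 897). The groups overlapped over most of their range. The pooled log2 ratio of SN to NSN was -0.17 (-0.19 to -0.15) in young and 0.11 (0.09 to 0.13) in aged oocytes, where it was -0.07 without oocyte 41, the deepest aged SN library with 24.1% of that group's counts. Per oocyte, 7 of the 8 aged SN oocytes lay above the aged NSN median, and the log2 ratio of the medians was 0.19. Of the 12 young SN oocytes, 6 lay above the young NSN median. In young oocytes the ratio of Smc4 was -0.44 among oocyte names without a final A and 0.20 among those with it, so its direction was not settled.

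The relation of the partners inside an oocyte needs no scaling between oocytes. Per kilobase, the median log2 ratio of Smc4 to Smc2 was 4.64 (SD 0.32) in young NSN and 3.89 (SD 0.34) in young SN oocytes. In aged oocytes it was 4.66 (SD 0.34) in NSN and 3.65 (SD 0.40) in SN. Smc4 transcripts exceeded those of Smc2 in every oocyte, and 0 of the 12 young and 0 of the 8 aged SN oocytes reached the NSN median of their age. The ranges still touched, from 3.31 to 4.37 in young SN against 4.09 to 5.13 in young NSN oocytes. With the longest annotated transcript as the length the medians shifted alike in all groups.

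**Figure D2:**
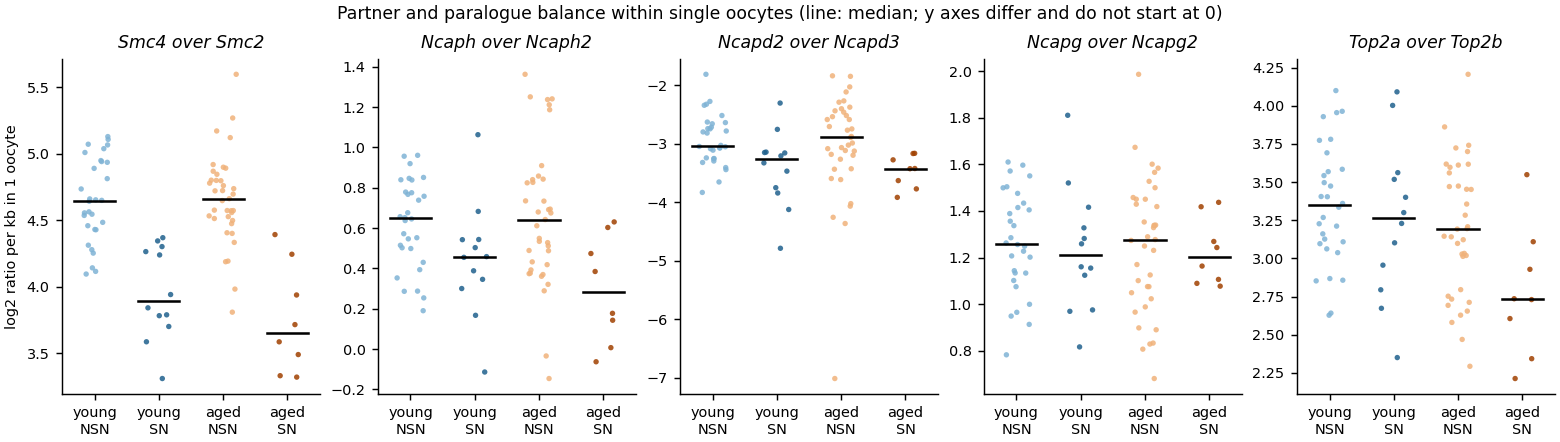
Log2 ratio of counts per kilobase of exon union between partner or paralogous genes inside single oocytes (points), with group medians as lines; y axes differ between panels. SN oocytes lie low for Smc4 over Smc2 at both ages, with medians of 3.89 and 3.65 against 4.64 and 4.66 in NSN oocytes.

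No condensin I subunit had a pooled ratio by age or by configuration that passed the fold of 0.25 on the log2 scale that is used further on. Ncaph, the kleisin of condensin I, stood at 108 pooled CPM in young NSN, 111 in young SN, 108 in aged NSN and 95.8 in aged SN oocytes. Single oocytes of the 4 groups overlapped, though 0 of the 8 aged SN oocytes lay above the young SN median (log2 ratio of aged to young SN -0.21, interval -0.29 to -0.13). The log2 ratio of SN to NSN of Ncaph was 0.03 in young and -0.17 (-0.24 to -0.10) in aged oocytes, where 1 of the 8 SN oocytes lay above the NSN median. Ncapg stood at 615, 555, 616 and 608 pooled CPM in the same order of groups, with a log2 ratio of SN to NSN of -0.15 in young and -0.02 in aged oocytes. Ncapd2 stood at 11.8, 10.7, 10.7 and 9.39, and the counting interval of each of its SN to NSN ratios included 0.

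Among the condensin II subunits, the HEAT subunit Ncapd3 was higher in aged SN than in aged NSN oocytes by more than that fold, while its ratio in young oocytes and both ratios of the kleisin Ncaph2 were positive but inside it. Ncapd3 ranged from 88.1 to 133 CPM in young NSN oocytes (median 111) and from 101 to 152 in young SN (median 127). In aged oocytes Ncapd3 ranged from 64.9 to 142 CPM in NSN (median 102) and from 114 to 154 in SN (median 131). Most SN oocytes were high at both ages, with 10 of the 12 young and 8 of the 8 aged SN oocytes above the NSN median. The ranges overlapped, and 6 of the 12 young and 2 of the 8 aged SN oocytes lay above the highest NSN oocyte. Aged NSN oocytes 11 and 44 were also high, at 142 and 135 CPM. Its log2 ratio of SN to NSN was 0.22 (0.17 to 0.26) in young and 0.36 (0.29 to 0.42) in aged oocytes. Ncaph2 stood at 69.3 and 78.7 pooled CPM in young NSN and SN and at 67.2 and 77.5 in aged NSN and SN oocytes, with log2 ratios of 0.18 (0.12 to 0.25) and 0.21 (0.12 to 0.29). Ncapg2, the third subunit of condensin II, stood at 357, 341, 361 and 372 and its ratios were -0.07 and 0.04. The 6 oocyte markers had a median log2 ratio of SN to NSN of 0.31 in young and 0.51 in aged oocytes, above the ratios of Ncapd3 and Ncaph2 at the same age, with 5 of 6 past the fold in young and 6 of 6 in aged oocytes, and their part in these ratios was not tested.

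The counterparts of condensin I and II were also compared within oocytes. The median log2 ratio per kilobase of Ncaph to Ncaph2 was 0.65 in young NSN, 0.46 in young SN, 0.64 in aged NSN and 0.28 in aged SN oocytes. The difference of SN from NSN was -0.19 in young oocytes, with SDs of 0.22 in NSN and 0.28 in SN, and -0.36 in aged oocytes, with SDs of 0.35 and 0.27. For Ncapd2 to Ncapd3 the medians were -3.03, -3.27, -2.89 and -3.42, so the condensin II subunit was the more abundant of this pair in each group. Here SN differed from NSN by -0.23 in young oocytes (SDs 0.44 in NSN and 0.65 in SN) and by -0.53 in aged oocytes (SDs 0.93 and 0.28). For Ncapg to Ncapg2 the medians were 1.26, 1.21, 1.28 and 1.20, with differences of -0.05 (SDs 0.22 and 0.27) and -0.07 (SDs 0.28 and 0.14). Of these differences, that of Ncaph to Ncaph2 in aged oocytes exceeded both of its SDs, and the others did not. Summed over the 3 subunits of each complex, condensin I exceeded condensin II by 0.74, 0.64, 0.76 and 0.60 on the log2 scale, and 3 of the 12 young and 0 of the 8 aged SN oocytes lay above the NSN median of their age. The difference of SN from NSN in this sum was -0.10 in young oocytes, less than the SDs of 0.17 in NSN and 0.25 in SN, and -0.16 in aged oocytes, less than the SD of 0.23 in NSN but more than that of 0.07 in SN.

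Top2a had lower pooled levels in SN and in aged oocytes, inside the fold of 0.25, while Top2b showed no like pattern. Top2a ranged from 91.0 to 227 CPM in young NSN oocytes (median 126) and from 67.2 to 178 in young SN (median 109). In aged oocytes Top2a ranged from 81.7 to 163 CPM in NSN (median 102) and from 75.3 to 132 in SN (median 90.5). All 4 groups overlapped, and only 12 of the 45 aged oocytes lay above the young median. The log2 ratio of aged to young was -0.19 (-0.22 to -0.16) in all oocytes, -0.21 (-0.24 to -0.17) in NSN and -0.24 (-0.32 to -0.16) in SN oocytes. The ratio of SN to NSN was -0.21 (-0.26 to -0.16) in young and -0.24 (-0.31 to -0.17) in aged oocytes. Over the alternatives this ratio lay between -0.34 and -0.07 in young and between -0.36 and -0.17 in aged oocytes. It thus passed the fold under some of them. The pooled granulosa sum was also lower in SN and in aged oocytes, by the values given above. Its median per oocyte did not follow this in every group, at 8.35 CPM in young NSN, 4.20 in young SN, 3.96 in aged NSN and 7.10 in aged SN oocytes, and its part in this result was not tested. The correlation of Top2a with that sum was -0.03 over the 87 oocytes.

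Top2b stood at 20.6 pooled CPM in young NSN, 19 in young SN, 20.7 in aged NSN and 23.7 in aged SN oocytes, and its groups overlapped. The counting interval of its ratio of aged to young oocytes included 0 (0.07, -0.01 to 0.15). Per kilobase Top2a exceeded Top2b in every oocyte, by a median log2 ratio of 3.35 in young NSN, 3.26 in young SN, 3.19 in aged NSN and 2.73 in aged SN oocytes. Only 1 of the 8 aged SN oocytes lay above the young SN median of this ratio.

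Across the 10 genes, pooled ratios by age stayed inside the fold of 0.25 in all oocytes and in NSN oocytes, as for most features. In SN oocytes alone 3 passed it. The log2 ratios of aged to young ran from -0.19 (Top2a) to 0.08 (Smc4), and their median was -0.02, against -0.01 over the 11355 features with a mean of at least 5 CPM in the 2 groups. Calling a gene past the fold at a log2 ratio of 0.25 or more either way, 0 of the 10 genes were higher or lower, while 2.25% of all features were higher and 5.52% lower. Within NSN oocytes the count was again 0 of 10, with 2.48% of features higher and 6.66% lower. Within SN oocytes 3 of 10 genes were higher in aged oocytes, namely Smc2 (0.43, 0.34 to 0.53), Top2b (0.32, 0.15 to 0.49) and Smc4 (0.29, 0.26 to 0.32), and 0 were lower, against 13% of features higher and 10.2% lower. These 3 ratios rest on 8 aged and 12 young oocytes. Without aged oocyte 41 that of Smc4 was 0.11, and without young oocyte 24A, which holds 21.5% of the young SN counts, it was 0.20, so that 2 of the 10 genes were then past the fold.

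Between configurations the 10 genes had a median ratio of -0.09 at the young and 0.08 at the older age, against 0.01 and 2.5e-05 over all features, and 1 of the 10 genes was past the fold in young oocytes (Smc2, higher in SN) and 0 were lower, against 15.1% of features higher and 7.5% lower. Ncapd3 was a second one without young oocyte 24A (0.26). In aged oocytes 2 of 10 genes were higher in SN (Smc2 and Ncapd3) and 0 were lower, against 24.9% and 19.5% of features. The shares of members past the fold were thus not above those of all features, while Smc2 itself lay at the 97.3 percentile of the young and the 97.0 percentile of the aged ratios. Top2a was just inside the fold in both ages, and lower by more than the fold under some alternatives in each.

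**Figure D3:**
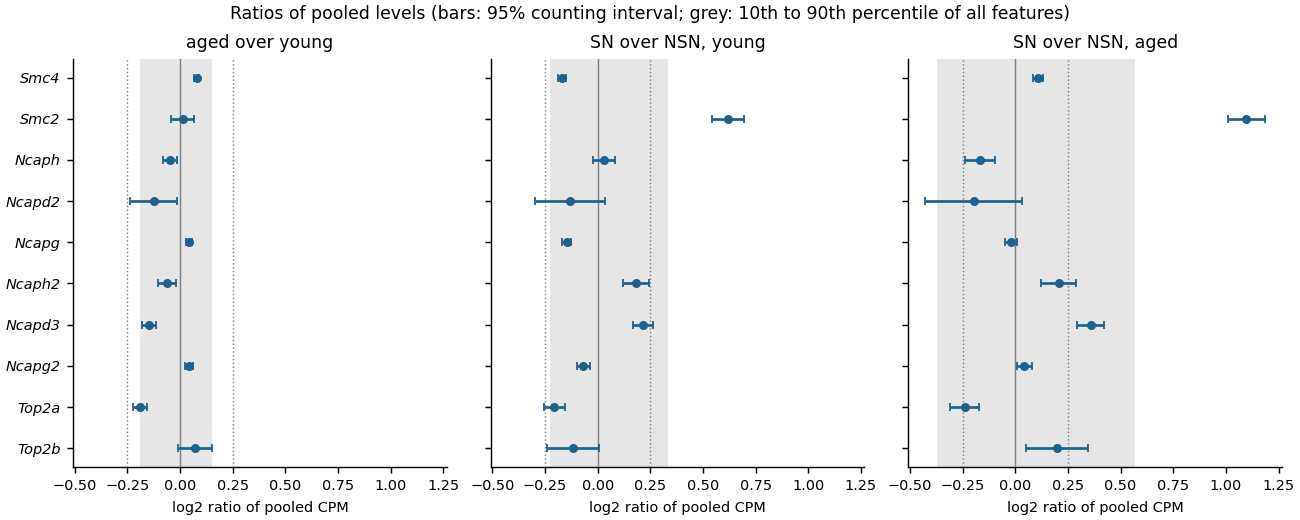
Log2 ratio of pooled CPM for each gene (points) in 3 comparisons, with 95% counting intervals as bars, the 10th to 90th percentile of all features in grey and the fold of 0.25 as dotted lines. All 10 ratios of aged to young lie inside the fold, and Smc2 is far to the right in both SN to NSN panels.

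By their names the oocytes form 6 runs in which numbers follow each other, 3 young and 3 aged with 13 to 16 oocytes each, and some names end in an A. What runs and ending stand for is not given, and since each run holds 1 age, runs and age cannot be told apart. Top2a stood at 123 to 132 pooled CPM in the 3 young runs and at 103 to 115 in the 3 aged runs, so that every aged run was lower than every young run. Ncapd3 behaved likewise, with 112 to 120 CPM in young and 101 to 110 in aged runs. Both separations were also present in NSN oocytes alone (Top2a 129 to 134 against 106 to 121 CPM, Ncapd3 109 to 114 against 96.0 to 105). The runs of the other 8 genes overlapped between the ages. How often the runs of other features separate in this way was not tested, so these separations have no background to be set against.

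For several genes a single run decided the direction of the ratio of aged to young oocytes, inside the fold. The aged runs of Smc4 stood at 810, 731 and 1165 pooled CPM, and its young runs at 916, 821 and 927. Without the third aged run (oocytes 41 to 48) the log2 ratio of aged to young of Smc4 was -0.20 in place of 0.08. Without the same run the ratio was -0.08 in place of 0.04 for Ncapg and -0.10 in place of 0.01 for Smc2, and those of Ncapg2 and Top2b, 0.04 and 0.07, were -0.0017 and -0.0055. Leaving out the first young run gave Smc2 a ratio of -0.11, and leaving out the second gave Ncapg -0.0078 and Ncaph2 0.01 in place of -0.06. The ending of the names mattered as well, since the ratio of Smc4 was 0.36 among names ending in A and -0.18 among the others. In young oocytes Smc4 stood at 758 pooled CPM for names ending in A and at 1005 for the others.

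**Figure D4:**
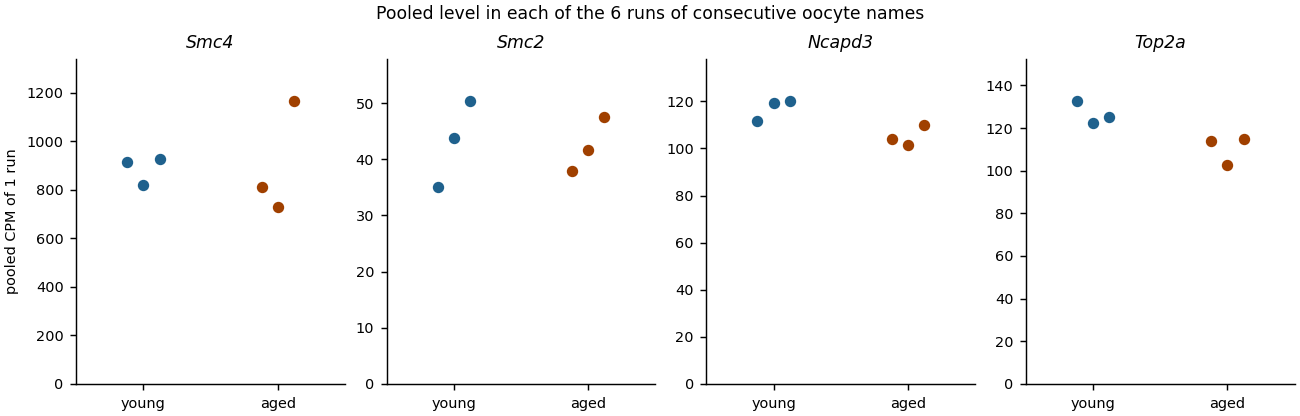
Pooled CPM of Smc4, Smc2, Ncapd3 and Top2a in each of the 6 runs of consecutive oocyte names (points), by age, on linear axes from 0. The 3 aged runs lie below the 3 young runs for Ncapd3 and Top2a and overlap them for Smc4 and Smc2.

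The 10 genes also differed in how much they varied from oocyte to oocyte. The spread was taken as the coefficient of variation (CV) of CPM after counting noise was subtracted. Smc2 had the widest spread, 40.3% in young and 41.2% in aged oocytes, but within NSN oocytes it was 24.5% and 18.2%. Smc4 followed with 32.3% and 32.8%, and in NSN oocytes alone it kept 33.1% and 35.4%. With both configurations, Smc4 stood at the 98.3 percentile of the features nearest to it in mean count in young and the 96.6 percentile in aged oocytes. Smc2 stood as high, at 98.4 and 96.6. In NSN oocytes alone Smc4 stood at 98.9 and 97.2, and Smc2 at 88.4 and 35.4. The steadiest were Ncaph (11.8% and 14.8%), Ncaph2 (12.4% and 14%) and Ncapg2 (12.9% and 13.3%). Ncapd3 had 12.9% in young and 19.1% in aged oocytes.

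The squared spread was higher in aged than in young oocytes for 9 of the 10 genes, with a median log2 ratio of 0.28, against 0.45 over 12376 features, of which 74.0% were above 0. Top2a was the exception, with 21.5% in young and 19.7% in aged oocytes. In NSN oocytes alone the median was 0.69 with 7 of 10 above 0, against a median of 0.52 and 74.0% over all features. When oocytes were thinned to 900000 counts the median was 0.11 with 8 of 10 above 0, against 0.49 and 71.2%. Both changes together gave 0.38 with 6 of 10, against 0.54 and 71.1%. Whether the members lay above or below all features thus depended on the setting.

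Across the 87 oocytes Smc4 and Ncapg went together most closely, with a Pearson correlation of log2(CPM + 1) of 0.84, and it was 0.84 after thinning. Within young NSN oocytes it was 0.87 (n = 30) and within aged NSN oocytes 0.86 (n = 37). Smc4 also went with Top2a (0.54), Ncapg2 (0.50), Smc2 (0.50) and Top2b (0.50), whereas Smc2 went against Ncaph (-0.44) and Ncapg went against Ncaph and Ncaph2 (both -0.39). The negative values with Ncaph differed between the groups. Among NSN oocytes, Smc2 with Ncaph was at -0.58 (young) and -0.31 (aged), or -0.43 and -0.11 after thinning, and Ncapg with Ncaph was at -0.67 and -0.18. Ncapg with Ncaph2 was at -0.29 and -0.35. Of the 45 pairs, 12 were above 0.3 and 4 below -0.3, and the median was 0.15. Pairs of other features were not counted, so whether the members went together more than other genes was not tested. The points share library preparation and configuration, and these values are descriptions with no test.

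**Figure D5:**
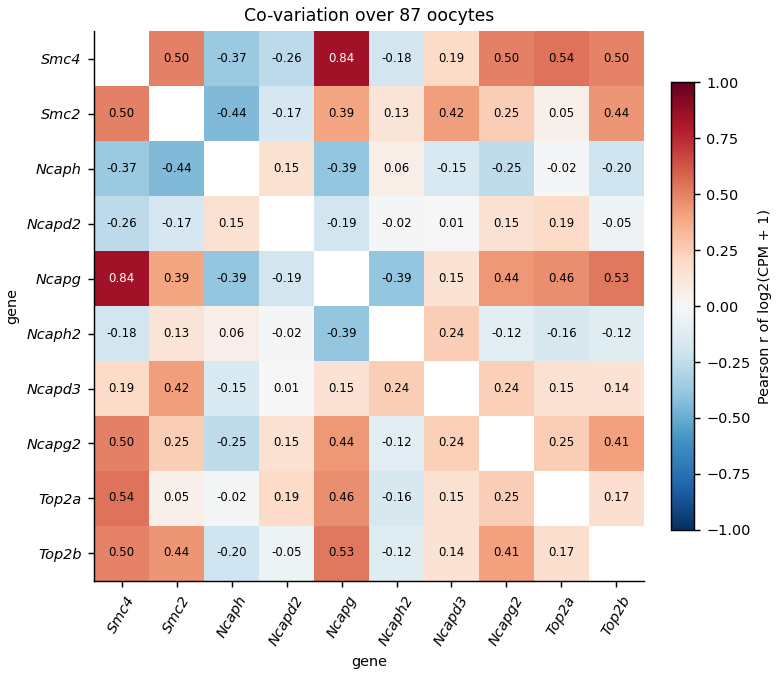
Pearson correlation of log2(CPM + 1) for each pair of the 10 genes over 87 oocytes, printed in the cells and coloured from blue (-1) to red (1). The strongest cell is Smc4 with Ncapg at 0.84, and Ncaph is negative with Smc4, Smc2 and Ncapg.

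Among the 11361 features with at least 5 pooled CPM, the one most like Ncapg was Smc4 itself, followed by Cul4b (0.84), a ubiquitin ligase scaffold. Smc4 was most like Rdx (0.87), which encodes the membrane linker radixin, and Eif5 (0.87), a translation initiation factor. Smc2 was most like Mga and Appl1 (both 0.82), and Ncapd3 most like Cltc (0.76), the clathrin heavy chain, and Kdm1b (0.73), the histone demethylase active in growing oocytes. Top2b was most like Hells (0.61), a chromatin remodeller, and Ythdf3 (0.61), and Top2a most like Zfp638 (0.62) and Ddias (0.61). For Ncaph they were Ftsj3 (0.66) and Eef2k (0.65), for Ncaph2 Fam151a (0.61) and Ddx41 (0.60), and for Ncapd2 Tbc1d14 (0.59). Ncapg2 was most like Fam199x (0.73) and the unnamed feature TCONS_00088745 (0.71).

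Of the genes that act on condensin or at the chromosome periphery, all 12 listed passed the minimum of 5 CPM. None was past the fold between the ages, and the median log2 ratio was -0.02. Between configurations the list had a median ratio of -0.07 (young) and -0.15 (aged). In young oocytes 0 were higher and 1 lower in SN, the casein kinase 2 subunit Csnk2a2 (-0.29), against 15.1% of all features higher and 7.5% lower. In aged oocytes 1 was higher, the chromokinesin Kif4 that binds condensin (337 CPM in SN and 270 in NSN, 0.32), and 3 were lower, the kinases Aurkc (163 and 244, -0.58), Aurkb (-0.27) and Csnk2a1 (-0.25), against 24.9% of features higher and 19.5% lower, so that the list did not stand out by its counts. Aurkc was also lower in aged than in young SN oocytes (-0.31), as were 10.2% of features. Cdk1 and Plk1, which phosphorylate condensins at division, stood within the fold throughout.

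Of 10 genes for other topoisomerases and the repair of their DNA adducts, 9 had a feature and 8 passed the minimum. None was past the fold between the ages. Top3a, the type IA enzyme that works with the BLM helicase, was higher in SN oocytes at both ages (146 against 112 CPM in young, 0.38, and 160 against 104 CPM in aged, 0.63), and Topbp1 in aged oocytes (0.29), which is 1 of 8 genes in young and 2 of 8 in aged oocytes against 15.1% and 24.9% of features. Top1, the enzyme that relaxes supercoils by cutting one strand, stood at 281 CPM in young and 315 in aged oocytes (0.16).

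Of 10 genes of the SMC5/6 complex and other SMC proteins, 9 had a feature and passed. None was past the fold between the ages, and the median was 0.07. Between configurations these genes had a median ratio of -0.19 (young) and -0.30 (aged). The SMC5/6 subunits Nsmce2 (223 against 296 CPM, -0.41), Nsmce4a (-0.32) and Nsmce1 (-0.26) were lower in young SN than NSN oocytes, which is 3 of 9 genes against 7.5% of all features. In aged SN oocytes the same 3 were lower (-0.51, -0.38 and -0.47), with Smc6 (-0.43) and the cohesin core gene Smc3 (-0.30), while Smc5 (0.34) and Smchd1 (0.28) were higher. That made 5 of 9 lower and 2 of 9 higher, against 19.5% and 24.9% of features. Smc5 and Smc6 encode partners of 1 heterodimer, and stood at 21.5 and 171 CPM in aged SN and at 17 and 231 CPM in aged NSN oocytes. Smc1b, the meiotic cohesin subunit, had a higher pooled level in aged than in young SN oocytes (24.5 against 19.1 CPM, 0.36), but the medians per oocyte were 19.9 and 19.3 CPM and 4 of the 8 aged SN oocytes lay above the young SN median.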

How the data were processed

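Deposited read counts per feature were used for 87 of 88 GV oocytes; oocyte 48A, which has no configuration, was left out of every group and is given apart. The authors trimmed reads with Trim Galore 0.4.4, aligned them to GRCm38 with HiSat2 2.1.0 and counted them over an oocyte transcriptome; the counting program and strand setting are not given in the sources used here. From the counts as deposited, CPM, pooled CPM, exact 95% Poisson or conditional binomial intervals, log2 balances per kilobase within oocytes (0.5 counts added), spread (mean count of at least 10, set beside up to 500 features of nearest mean count) and correlations of log2(CPM + 1) were computed in Python 3.11.15 with scipy 1.17.1, and TMM factors with edgeR 4.0.16. The spread and ratio steps were checked on simulated data. The members, lists and settings were chosen with earlier results of these data known. The named genes were the 10 members, list genes past a log2 ratio of 0.25, a few list examples, and the 2 features most alike to each member (for Ncapd2, 1 of them is not reported here). Alternatives were other scalings, medians over oocytes, thinning to 900000 counts, names with or without an ending A alone, leaving out runs or SN oocytes, and other folds and filters.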

Additional observations from a re-analysis of the deposited data

Results flagged for a closer look

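In aged SN oocytes, the Smc4 level of oocyte 41 stood apart at 1349 CPM, against 1045 CPM in the next oocyte and a median of 897 CPM. The gap made up 0.528 of the range of the 8 oocytes. This oocyte is also the deepest of its group, and without it the pooled Smc4 log2 ratio of SN to NSN in aged oocytes was -0.07 in place of 0.11. Still, 7 of the 8 aged SN oocytes lay above the aged NSN median. The 10 genes were each looked at in this group.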

How the results depend on the processing

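No ratio past the fold turned round under any alternative. Between the ages, 0 genes were past the fold, but 1 was lower (Top2a) with medians over oocytes or without the suffix A, 1 was higher (Smc4) with the suffix A, and 3 were higher in SN oocytes alone. In young SN against NSN oocytes, 4 genes were lower without the suffix A, and the median log2 ratio, -0.09, was 0.053 with it; leaving out single SN oocytes gave 1 to 2 higher genes (2 without 24A). In aged SN against NSN oocytes the median of 0.08 was -0.052 with the suffix A, and of 0 lower genes 1 was found with TMM factors, median of ratios scaling or thinning and 2 with the suffix A; at a fold of 0.5, 1 was higher; leaving out single SN oocytes gave 0 to 1 lower genes (1 without oocyte 12, 15 or 41). At most, the aged ratios of SN to NSN of Smc4 and Top2b reached 0.32 and 0.28 over the alternatives, which is past the fold. With medians over oocytes that of Top2b was 0.26. In aged against young SN oocytes leaving out single oocytes gave 0 to 2 lower genes (1 without 12, 15, 41, 1A or 38, and 2 without 21) and 2 to 3 higher. The median spread ratio of 0.28 was 0.69 in NSN oocytes alone. Leaving out SN oocytes and thinning NSN oocytes were chosen after seeing the data. Low counts limit Ncapd2 and Top2b, and 8 aged SN oocytes limit every statement on that group.
No paired analysis was possible because the oocyte names share no numbers between the ages and no test was run.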

Other observations

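Aged oocyte 48A, which the study left without a configuration, stood outside the range of the other 45 aged oocytes for 5 of the 10 genes. Top2a was 23.4 CPM there against 75.3 to 163 CPM, Ncapd3 41.8 against 64.9 to 154, Ncapg2 152 against 233 to 493, Ncapg 307 against 434 to 1037, and Ncaph2 107 against 44.5 to 87.7. The study's methods say that an oocyte whose transcripts stood far from the others was excluded, without naming it. If that was 48A, these values restate the ground for leaving it out. Smc4, at 1211 CPM, and Smc2, at 47.4 CPM, lay inside the range.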
